A study of Mus musculus with 16 samples.

Results

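Osteoclasts lacking sterol regulatory element binding protein-2 (SREBP2), encoded by Srebf2, were compared with control osteoclasts by RNA sequencing across every gene of the deposited filtered table, with weight on functions other than sterol synthesis and the interferon response. The libraries were the 4 RANKL-treated libraries of the SREBP2 experiment, 2 SREBP2-deficient and 2 control, of 16 libraries in the series, and 10764 genes of the 21497 listed were tested. SREBP2-deficient cells came from SREBP2floxflox LysM cre mice and control cells from LysM cre mice, so both genotypes carried Cre driven by the lysozyme M promoter, which is active in myeloid cells and therefore already in the macrophage precursors. The text of the paper gives a different RANKL concentration from the labels for these cells, and the label's value is used here. All mice were female, and their age is not in the labels. Bone marrow macrophages of both genotypes were grown with 23.3 ng/mL M-CSF and then, by the labels, given 40 ng/mL RANKL for 3 days, and the 4 libraries of the same experiment kept in M-CSF alone served as macrophages for comparison. The 2 libraries of a group are described by the study as biological replicates, and no source used here says whether these were different mice or cultures of the same mouse, so the p-values below reflect the spread between these libraries.

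RANKL, a cytokine of the tumour necrosis factor family, binds RANK on macrophage precursors and drives them to fuse into multinucleated osteoclasts, the cells that dissolve bone with acid and proteases. As they differentiate, the cells gain the proton pump, cathepsin K and the calcitonin receptor, and lose much of the equipment of a macrophage, such as Fc receptors, complement and Toll-like receptors, together with transcription factors that hold differentiation back. SREBP2 is released from intracellular membranes when sterols are low and switches on the genes of cholesterol synthesis and uptake.

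Levels are given as CPM, read counts scaled to the TMM-adjusted library size, listed as control replicates 1 and 2 and then SREBP2-deficient replicates 1 and 2. Differences are log2 fold changes of SREBP2-deficient over control osteoclasts, with the standard error (SE), from edgeR's quasi-likelihood test, and adjusted p-values are Benjamini-Hochberg values over all 10764 genes. The total counts were 10353042 and 11971372 in the control and 7991738 and 7914683 in the SREBP2-deficient osteoclasts, and 1 count was worth 0.0747 to 0.13 CPM over the 8 libraries of the fit. Srebf2 itself was at 281 and 250 CPM in control and 0.835 and 0.131 CPM in SREBP2-deficient osteoclasts, as the labels say. All 10 osteoclast markers were detected and summed to between 62870 and 77025 CPM in the 4 osteoclast libraries against 81.3 to 102 CPM in the 4 macrophage libraries. Erythroid markers reached at most 0.131 CPM in osteoclasts, 5 of the 6 T and NK cell markers in the table were at 0 there, and the 11 neutrophil markers summed to 18.4 and 32.3 CPM in control and 12.5 and 16.4 CPM in SREBP2-deficient osteoclasts. In macrophages that sum was 384 and 411 CPM in control and 254 and 133 CPM in SREBP2-deficient cells, so it was lower in SREBP2-deficient cells of both kinds, and 2 of its genes, S100a9 and Mmp8, were called lower in osteoclasts by the rule given next. The part of neutrophils in the other results was not tested.

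The difference between the genotypes was small for most genes. Only 4 genes (0.0372%) passed an adjusted p under 0.05, namely Srebf2, Sqle, Stard4 and the pseudogene Rpl3-ps1. All other genes described below are therefore described by a weaker rule and called when they had an unadjusted p under 0.05 and a fold change over 1.5, which 34 genes (0.316% of those tested) passed with higher and 140 (1.3%) with lower values in SREBP2-deficient osteoclasts. At an unadjusted p under 0.05 alone the counts were 97 higher (0.901%) and 293 lower (2.72%), and together 3.62% of all genes, below the 5% that such a threshold admits when nothing differs. Together the 174 genes made up 1.62% of those tested. All 34 higher and all 140 lower genes had groups that did not overlap, so a lack of overlap adds nothing to a call. Of all tested genes, 14.2% were apart with higher and 15.4% with lower deficient values. Of the 140 lower genes, 34 were on lists of sterol, interferon or antigen presentation genes and 106 were not. Genes named outside the rule fixed for naming, which were added after their values were seen, are Hmgcs1, Id3, Irf7, Cx3cr1, S100a9, C1qa, C5ar1, Fcer1g, Csf2rb, Tyrobp, Abca1, Acaca, Asns and the genes given only for a promoter match or as a near copy. The central 90% of all log2 fold changes lay between -0.43 and 0.31, and the median was 0.01.

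**Figure D1:**
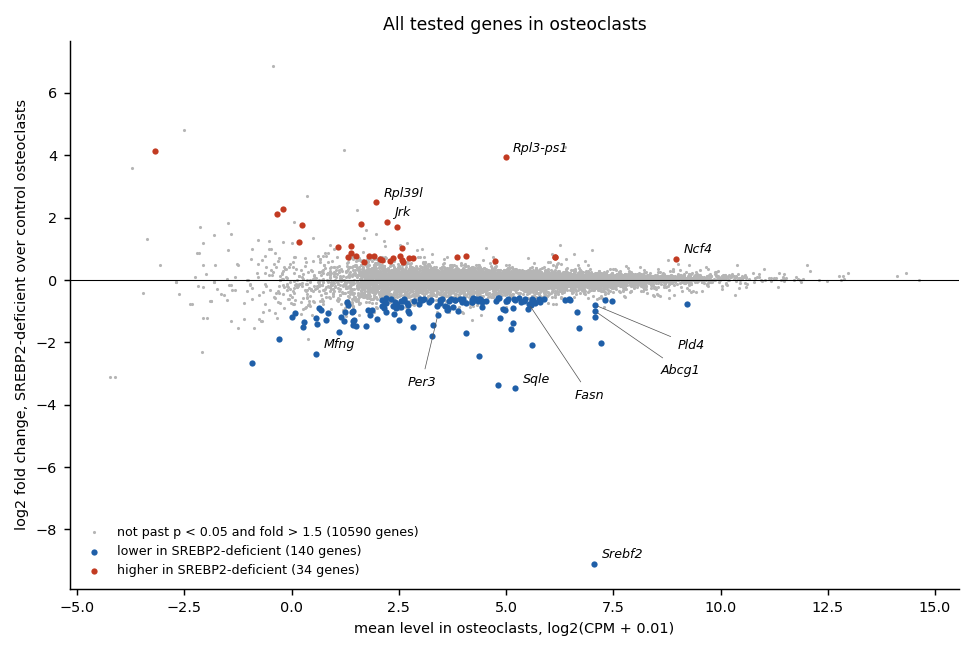
Log2 fold change of SREBP2-deficient over control osteoclasts (vertical axis) against the mean level in the 4 osteoclast libraries on a log2 axis, log2(CPM + 0.01), for the 10764 tested genes. Blue points are the 140 lower and red points the 34 higher genes at an unadjusted p under 0.05 and a fold change over 1.5, and most other genes lie near 0.

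The machinery of bone resorption and cell fusion held no called gene. None of the 15 tested genes of the resorption machinery, none of the 14 fusion genes, none of the 18 subunits of the proton pump (V-ATPase) and none of the 17 RANK signalling genes was called, and the medians were 0.03, 0.00, 0.12 and 0.03 on the log2 scale. When 1 osteoclast library was left out the V-ATPase median ran from 0.056 to 0.19, and those of the other 3 lists changed sign. Among 10 osteoclast markers no gene had groups that did not overlap, while over all tested genes 14.2% were separated with higher and 15.4% with lower deficient values. The V-ATPase subunits lay above 0 in 16 of 18 cases, and the smallest p was that of Atp6v1f, at 367 and 333 CPM in control and 452 and 376 CPM in SREBP2-deficient osteoclasts. The clearest exception was Sort1, which encodes the sorting receptor sortilin. It was at 20.7 and 22.2 CPM against 15.7 and 14.6 CPM, without overlap (-0.50 ± 0.12 SE, adjusted p = 0.589), and did not reach the 1.5-fold rule.

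Several osteoclast genes varied more between replicates than between genotypes. Itgb3, the integrin subunit of the sealing zone, was at 674 and 1102 CPM in control and 509 and 1040 CPM in SREBP2-deficient osteoclasts (-0.20 ± 0.36 SE). Calcr, the calcitonin receptor, was at 148 and 322 CPM against 110 and 261 CPM, so that replicate 2 was the higher library in both genotypes. Ctsk, the collagen-degrading protease cathepsin K, stood at 22077 and 15645 CPM in control and 26416 and 17354 CPM in SREBP2-deficient cells (0.21 ± 0.31 SE), with replicate 1 the higher one. The other genes of this group were Acp5 at 0.13 ± 0.15, Dcstamp at 0.10 ± 0.17, Oscar at 0.06 ± 0.14 and the master regulator Nfatc1 at -0.14 ± 0.14 on the log2 scale (SE), all with an adjusted p of 1. For Itgb3, Calcr and Ctsk the deficient library lay on the same side of the control library of the same number in both replicates. Leaving out 1 osteoclast library, without regard to the numbers, changed the sign of each of these 7 genes.

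No gene on the list of brakes on osteoclast formation was called, although most lay below 0. Irf7, which the paper describes as a negative regulator of osteoclast differentiation, is not on that list and was called lower. It kept an unadjusted p under 0.05 in 10 of 17 alternatives. Of 14 tested brake genes, 11 lay below 0 with a median of -0.35, against a median of -0.10 for the 18 driver genes and 0.01 for all genes. At an unadjusted p under 0.05 stood 5 brake genes, all lower, beside 2.72% of all genes. Irf8, which opposes NFATc1, was at 36.9 and 32.4 CPM in control and 24.5 and 25.6 CPM in SREBP2-deficient osteoclasts (-0.47 ± 0.16 SE). Ikzf1, the lymphoid and myeloid regulator Ikaros, was at 45.4 and 42.9 against 30.1 and 35.8 CPM (-0.42 ± 0.13 SE), and the groups of both genes were apart. Maf, a basic leucine zipper factor of macrophages, was at 203 and 206 CPM against 146 and 165 CPM (-0.39 ± 0.14 SE), also without overlap. Id3, an inhibitor of basic helix-loop-helix factors, was at 77.3 and 68.3 against 59 and 45.8 CPM (-0.47 ± 0.19 SE). These 4 genes had an adjusted p of 1, and Irf8, Ikzf1 and Maf lost p under 0.05 when 1 osteoclast library was left out (highest p 0.073, 0.0981 and 0.126). The median of the brake list was -0.12 without control replicate 1 and -0.17 without deficient replicate 2, and that of the drivers ran from -0.20 to 0.00 when 1 library was left out. By library the brake list stood at 0.09 and -0.09 in control and -0.12 and -0.38 in SREBP2-deficient osteoclasts, so deficient replicate 2 was the low one, and the difference between the lists was not tested. In macrophages the brake list had a median of 0.05.

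Receptors by which macrophages sense and engulf foreign or dying material lay mostly below 0 in SREBP2-deficient osteoclasts. Of 6 tested IgG Fc receptors and binding proteins all 6 lay below 0 (median -0.54), as did 9 of 10 complement genes (-0.27), 17 of 21 Toll-like receptors and adaptors (-0.26), 19 of 22 lectin and inhibitory receptors (-0.29), 11 of 16 scavenging receptors (-0.15) and 25 of 36 cytokine and growth factor receptors (-0.14). Over all tested genes 47.4% lay below 0. The Fc list's median was -0.35 without deficient replicate 2, that of the scavenging receptors -0.23 without control replicate 1, and that of the cytokine receptors ran from -0.22 without deficient replicate 1 to -0.04 without control replicate 1. Called lower were 1, 0, 4, 4, 2 and 2 of these genes, and 1 cytokine receptor gene, Tnfrsf12a, was called higher. Of all tested genes, 1.3% were called lower and 0.316% higher. Of the 10 macrophage markers 8 lay below 0 with a median of -0.29, and none of the 10 was at 0. Their summed level was 6268 to 6631 CPM in control and 5804 to 5879 CPM in SREBP2-deficient osteoclasts. Cx3cr1 went the other way without overlap, at 4.37 and 6.24 CPM in control and 8.21 and 7.35 CPM in SREBP2-deficient osteoclasts. Some markers, such as Mertk and Fcgr1, are also on the receptor lists, so the markers are not a separate measure. In these bulk libraries fewer macrophages beside the osteoclasts and less of these RNAs per cell cannot be told apart, and the part of remaining macrophages in the results that follow was not tested.

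**Figure D2:**
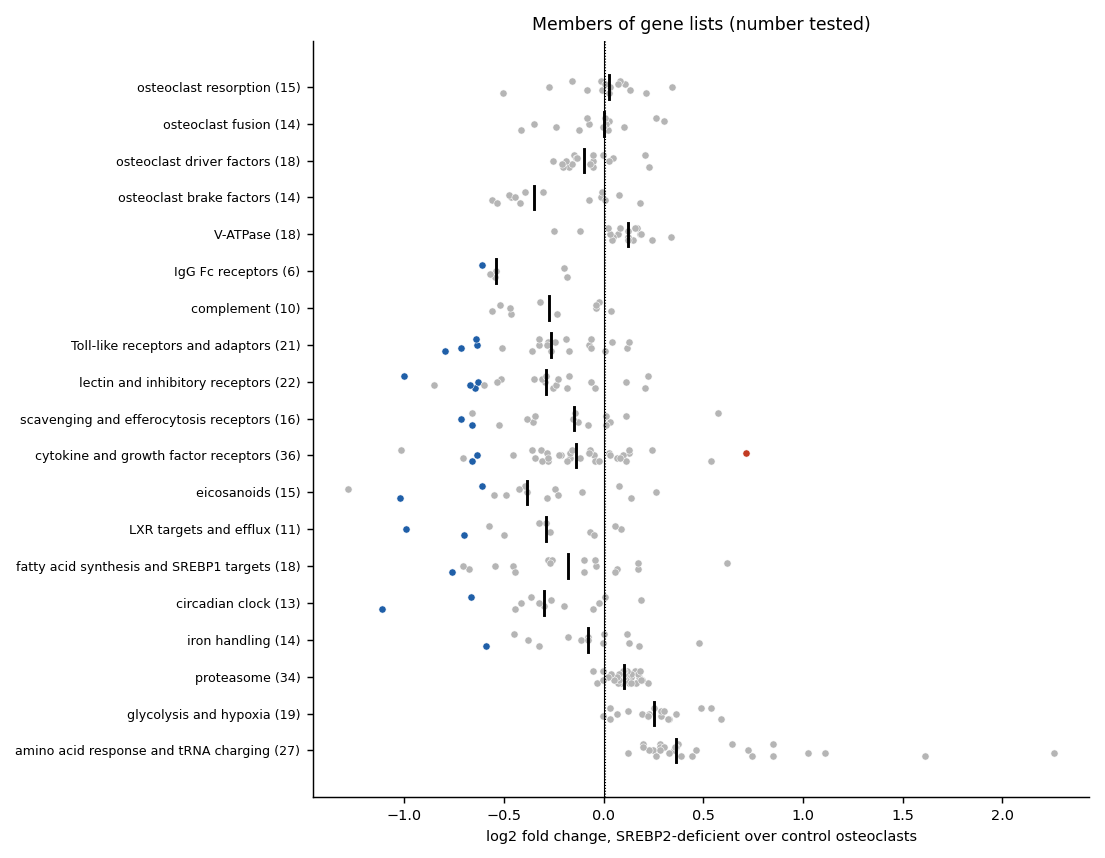
Log2 fold change of SREBP2-deficient over control osteoclasts (horizontal axis) for each tested member of 19 gene lists, with the number tested in brackets. Blue and red points passed an unadjusted p under 0.05 with a fold change over 1.5, grey points did not, and the black bars are list medians, which run from -0.54 for IgG Fc receptors to 0.36 for the amino acid response.

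Pld4 had the smallest p of the lower genes outside the sterol, interferon and antigen presentation lists. It encodes a nuclease of the endolysosome that trims single-stranded DNA and RNA, the ligands of the nucleic acid sensing Toll-like receptors, and lies at chr12:112760655-112768990 (mm10). It was at 164 and 175 CPM in control and 91.7 and 104 CPM in SREBP2-deficient osteoclasts, well apart. The difference was -0.80 ± 0.12 SE (adjusted p = 0.0894). In macrophages Pld4 was at 371 and 359 CPM in control and 378 and 337 CPM in SREBP2-deficient cells (-0.03), and the interaction of genotype with RANKL had an unadjusted p of 0.00111 and an adjusted p of 1.

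The promoters of Pld4 and of another pair of lower genes are shown because each holds the sequence GAGGAAGT, the core bound by ETS factors such as PU.1, which directs myeloid gene expression. Cd300ld encodes an activating receptor of the CD300 family and Ptgs1 the cyclooxygenase COX-1. Each sequence runs from 250 bases before to 50 bases after the gene start in RefSeq on GRCm38.p6, and the capitals mark the match. They lie at chr12:112760405-112760704 (plus strand), chr11:114989837-114990136 (minus strand) and chr2:36230176-36230475 (plus strand).
Pld4: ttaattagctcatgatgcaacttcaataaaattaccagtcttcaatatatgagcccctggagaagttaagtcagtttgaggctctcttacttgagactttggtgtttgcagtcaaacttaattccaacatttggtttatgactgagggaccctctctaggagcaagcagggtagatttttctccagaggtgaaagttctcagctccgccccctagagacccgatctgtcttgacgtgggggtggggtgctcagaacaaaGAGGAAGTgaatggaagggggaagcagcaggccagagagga
Cd300ld: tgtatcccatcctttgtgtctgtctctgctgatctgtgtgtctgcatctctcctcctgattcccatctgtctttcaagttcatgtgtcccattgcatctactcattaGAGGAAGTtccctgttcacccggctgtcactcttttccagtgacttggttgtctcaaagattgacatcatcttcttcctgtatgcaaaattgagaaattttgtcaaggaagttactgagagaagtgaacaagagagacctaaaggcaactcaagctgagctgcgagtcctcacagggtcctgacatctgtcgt
Ptgs1: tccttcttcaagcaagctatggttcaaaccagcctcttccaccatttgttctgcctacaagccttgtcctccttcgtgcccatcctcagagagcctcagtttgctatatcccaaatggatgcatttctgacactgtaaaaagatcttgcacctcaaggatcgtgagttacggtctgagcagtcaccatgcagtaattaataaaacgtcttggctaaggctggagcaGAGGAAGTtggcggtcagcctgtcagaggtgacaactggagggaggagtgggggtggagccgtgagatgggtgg
The match begins 9 bases after the start of Pld4, 143 bases before that of Cd300ld and 24 bases before that of Ptgs1. With both strands searched, GAGGAAGT was found in the promoters of 11 of the 112 lower genes with an entry in the table (9.82%), in 0 of the 24 higher genes with an entry, in 4.05% of the 8529 tested genes with an entry and in 3.2% of all 32851 promoters. The other lower genes with it were Acat2, Cd300ld3, Csf2rb2, Gapt, Lrrc8c, Mmp8, Phf11b and Sult1a1. A match of letters is a description of the window and not a shown binding site.

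Cd300ld was at 118 and 102 CPM in control and 72.4 and 67.9 CPM in SREBP2-deficient osteoclasts. The groups did not overlap (-0.64 ± 0.11 SE, adjusted p = 0.216), and in macrophages the difference was -0.23. Its near copy Cd300ld3 shares sequence, so reads may be split between them. The other 3 called lectin and inhibitory receptor genes all belong to the MS4A family of membrane proteins. Ms4a6c was at 102 and 100 CPM against 60.6 and 70.6 CPM (-0.63 ± 0.18 SE), Ms4a4a at 23.5 and 15.7 against 12.4 and 7.21 CPM (-0.999 ± 0.34 SE), and Ms4a6b at 36.5 and 30 against 19.5 and 22.2 CPM (-0.67 ± 0.27 SE). Each of the 3 lost p under 0.05 without 1 osteoclast library (highest p 0.0531, 0.103 and 0.156), whereas Cd300ld kept it in all 17 alternatives. Ms4a6b and Ms4a6c are close paralogs.

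The called Toll-like receptor genes beside Pld4 were the endosomal RNA sensors Tlr7 and Tlr8 and Ly86, which encodes MD-1, the partner of the receptor RP105. Tlr7 was at 52.8 and 68.2 CPM in control and 31.6 and 46.2 CPM in SREBP2-deficient osteoclasts (-0.64 ± 0.23 SE). Tlr8 was at 70.7 and 66.6 against 38.3 and 45.3 CPM (-0.72 ± 0.30 SE), and Ly86 at 55.3 and 34.6 against 33.5 and 24.3 CPM (-0.64 ± 0.23 SE). No group of these genes overlapped, although the lowest control library of Ly86 was close to the highest deficient library. Their calls were less firm than that of Pld4, since the p of Tlr7 reached 0.172, that of Tlr8 0.197 and that of Ly86 0.196 when 1 osteoclast library was left out. Tlr8 also lost its call with a replicate block (p of 0.0638).

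Fcgr3, Fcgrt and C1qb lay lower by a smaller fold, without passing the 1.5-fold rule. Fcgr3, the low-affinity activating IgG receptor, was at 251 and 270 CPM in control and 168 and 189 CPM in SREBP2-deficient osteoclasts (-0.54 ± 0.12 SE, adjusted p = 0.474). Fcgrt, the neonatal Fc receptor that recycles IgG, was at 121 and 105 against 82.3 and 73.2 CPM (-0.54 ± 0.15 SE, adjusted p = 0.922). The groups of both were apart, and both missed the 1.5-fold rule narrowly, whereas Fcgr1 at 28.5 and 21.7 against 19.9 and 13 CPM (-0.61 ± 0.22 SE) passed it but lost p under 0.05 without control replicate 1 (p of 0.132) or deficient replicate 2 (p of 0.167). Fcer1g, the signalling chain shared by these receptors, was at 375 and 387 CPM in control and again at 375 and 387 CPM in SREBP2-deficient cells. The 3 chains of C1q, the recognition unit of the classical complement pathway, are encoded side by side on chr4. C1qb was at 582 and 533 against 423 and 384 CPM (-0.47 ± 0.11 SE, adjusted p = 0.64), C1qc at 482 and 381 against 339 and 285 CPM (-0.47 ± 0.15 SE) and C1qa at 524 and 380 against 383 and 247 CPM (-0.52 ± 0.22 SE), which overlapped. The receptor C5ar1 was at 174 and 176 against 162 and 182 CPM.

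**Figure D3:**
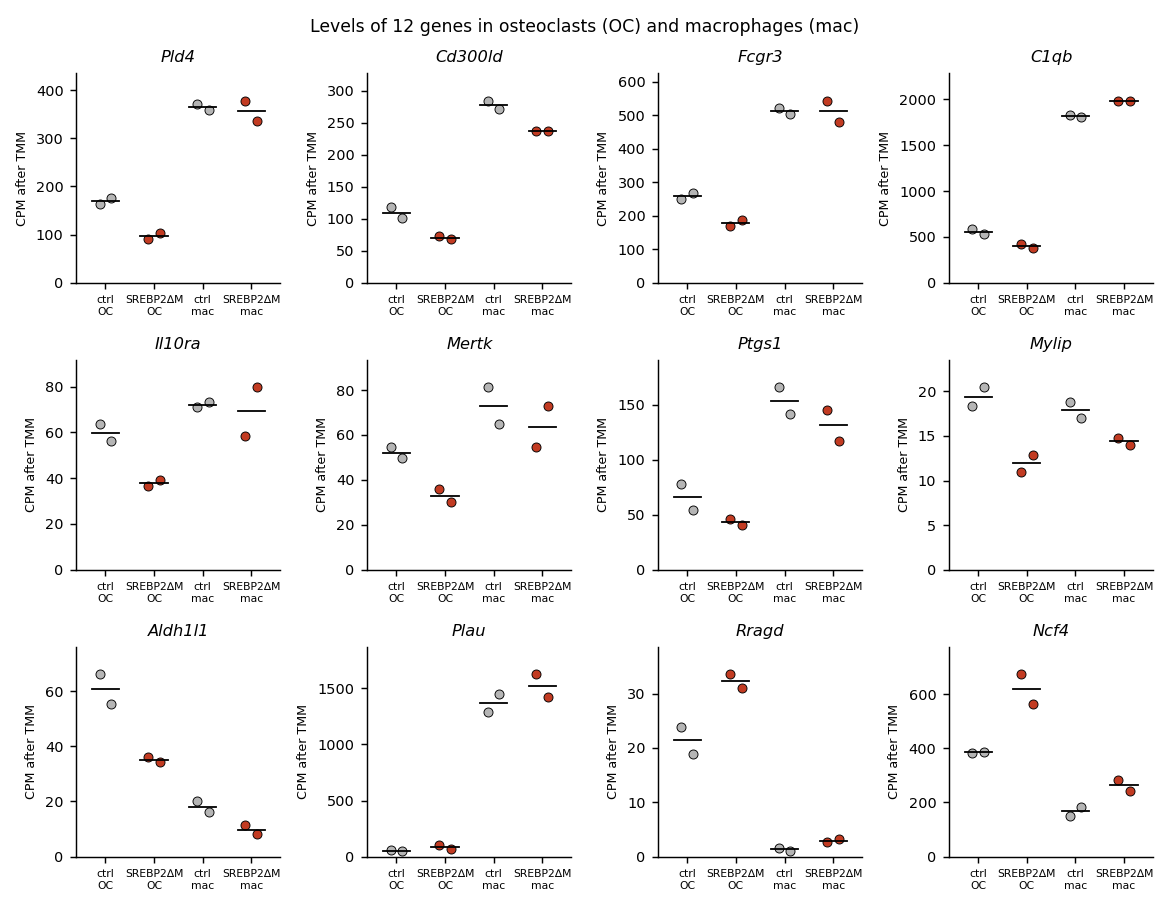
Levels of 12 genes in CPM after TMM scaling (vertical axes, from 0) in control (grey) and SREBP2-deficient (red, labelled SREBP2∆M) osteoclasts and macrophages, 2 libraries a group, with bars at the means. Pld4, Cd300ld, Fcgr3, C1qb, Il10ra, Mertk, Ptgs1, Mylip and Aldh1l1 are lower and Plau, Rragd and Ncf4 higher in SREBP2-deficient osteoclasts, and no osteoclast groups of these genes overlap.

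Engulfment and cytokine receptors held further called genes. Mertk, a receptor kinase for apoptotic cells, was at 54.5 and 49.5 CPM in control and 35.8 and 30 CPM in SREBP2-deficient osteoclasts (-0.66 ± 0.18 SE, adjusted p = 0.909). Clec7a, the beta-glucan receptor Dectin-1, which the file types as a polymorphic pseudogene, was at 71.6 and 52.9 against 45.9 and 29.9 CPM (-0.71 ± 0.24 SE), and its p reached 0.0967 when 1 osteoclast library was left out. Il10ra, the ligand-binding chain of the interleukin-10 receptor, was at 63.7 and 56 CPM in control and 36.5 and 39.4 CPM in SREBP2-deficient osteoclasts. It kept an unadjusted p under 0.05 in all 17 alternatives (-0.66 ± 0.16 SE, adjusted p = 0.616). Csf2rb2, the interleukin-3 receptor chain particular to mice, was at 214 and 170 against 138 and 109 CPM (-0.64 ± 0.19 SE). It lies 3.84 Mb from Srebf2 on chr15 and has the near copy Csf2rb, which was at 415 and 376 against 340 and 310 CPM. The called receptor in the other direction was Tnfrsf12a, the receptor of TWEAK, at 4.27 and 3.55 against 6.13 and 6.69 CPM (0.72 ± 0.27 SE). The highest p of Tnfrsf12a without 1 library was 0.123 and that of Csf2rb2 0.0623.

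Among 16 genes of immunoreceptor (ITAM) co-stimulation, the second signal of osteoclast formation, only the paired receptors Sirpb1a and Sirpb1c were called. They were called lower, as were 1.3% of all tested genes. Sirpb1a was at 5.21 and 3.2 CPM in control and 1.25 and 1.71 CPM in SREBP2-deficient osteoclasts (-1.49 ± 0.42 SE), and Sirpb1c at 14.6 and 12.3 against 9.88 and 7.35 CPM (-0.64 ± 0.22 SE, p of 0.131 without deficient replicate 2). These are near-identical neighbours on chr3, so the counts of each are uncertain. Trem2, the lipid-sensing receptor of this system, was at 157 and 187 against 129 and 140 CPM (-0.35 ± 0.13 SE, adjusted p = 1), and its signalling partner Tyrobp had a log2 fold change of 0.09.

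Several lipid functions outside sterol synthesis were lower in the median. Of 15 eicosanoid genes 12 lay below 0 (median -0.39, or -0.23 without deficient replicate 1) and 2 were called, of 11 genes that answer to liver X receptors or export cholesterol 9 lay below 0 (median -0.29) and 2 were called, and of 18 genes of fatty acid synthesis 13 lay below 0 (median -0.18) and 1 was called. All of these calls were lower, beside 1.3% of all tested genes called lower. Ptgs1, which starts prostaglandin synthesis, was at 77.9 and 54.6 CPM in control and 45.9 and 40.8 CPM in SREBP2-deficient osteoclasts (-0.61 ± 0.19 SE). Ptger2, the EP2 receptor of prostaglandin E2, was at 3.12 and 3.2 against 1.67 and 1.44 CPM (-1.02 ± 0.31 SE). The p of Ptgs1 reached 0.11 without control replicate 1 and that of Ptger2 0.0552 without deficient replicate 2. Alox5, the 5-lipoxygenase of leukotriene synthesis, was at 30 and 37.6 against 19.9 and 26.2 CPM, and Tbxas1, thromboxane synthase, at 52.3 and 54.6 against 42.6 and 39.2 CPM, both with an adjusted p of 1.

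Mylip and Abcg1 were the called genes of the liver X receptor list. Mylip encodes IDOL, the ubiquitin ligase that sends the LDL receptor to degradation, and was at 18.3 and 20.4 CPM in control and 11 and 12.9 CPM in SREBP2-deficient osteoclasts (-0.70 ± 0.16 SE, adjusted p = 0.533). Abcg1, an exporter of cholesterol to high-density lipoprotein, was at 173 and 183 against 64.7 and 115 CPM (-0.99 ± 0.36 SE). Its deficient replicates differed from each other by more than those of Mylip, and without deficient replicate 1 its difference was -0.63 (p of 0.118). Abca1, the other main exporter, was at 195 and 150 against 148 and 96.3 CPM, narrowly apart and not called (-0.50 ± 0.44 SE, adjusted p = 1). In the fatty acid list Fasn, fatty acid synthase, was at 61.2 and 54.5 against 34.9 and 33.4 CPM (-0.76 ± 0.21 SE, adjusted p = 0.936). Elovl6 at -0.68 ± 0.31 and Acaca at -0.45 ± 0.22 (SE) had an unadjusted p over 0.05.

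The promoter of a classical SREBP2 target is shown to set these genes beside the sterol response element, searched as TCACNCCAC on both strands. Hmgcs1, an early enzyme of cholesterol synthesis, was at 312 and 163 CPM in control and 55.7 and 61.8 CPM in SREBP2-deficient osteoclasts (-2.01 ± 0.31 SE, adjusted p = 0.216). Its window, chr13:119690101-119690400 on the plus strand (RefSeq, GRCm38.p6), holds the element in capitals 137 bases before the start.
Hmgcs1: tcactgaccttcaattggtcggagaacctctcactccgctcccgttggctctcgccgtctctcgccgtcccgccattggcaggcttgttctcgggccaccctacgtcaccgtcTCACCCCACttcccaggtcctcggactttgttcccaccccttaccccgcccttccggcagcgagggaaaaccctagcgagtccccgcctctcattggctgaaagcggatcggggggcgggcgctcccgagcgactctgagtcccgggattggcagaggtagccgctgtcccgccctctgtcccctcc
This was the 1 match among the 112 lower genes with an entry (0.893%), while 1.34% of tested genes with an entry and 1.24% of all promoters in the table had one. None of the 24 higher genes with an entry matched. Of the 17 sterol synthesis genes with an entry Hmgcs1 alone matched, although 16 of the 22 tested genes of that list were called lower. The share of matches therefore cannot show which lower genes are SREBP2 targets. Variants of the element with other letters were not searched.

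Clock and iron genes and single enzymes were also among the lower ones. Aldh1l1, the cytosolic enzyme that removes 1-carbon units from the folate pool, was at 66.1 and 55.3 CPM in control and 36.2 and 34.2 CPM in SREBP2-deficient osteoclasts (-0.78 ± 0.18 SE, adjusted p = 0.58), and the difference in macrophages was -0.90. Its mitochondrial counterpart Aldh1l2 was called in the other direction, at 1.67 and 1.04 against 7.66 and 1.84 CPM (1.81 ± 0.66 SE), with 0.46 and a p of 0.521 without deficient replicate 1. Of 13 clock genes 11 lay below 0 (median -0.30, or -0.19 without deficient replicate 1) and 2 were called lower, beside 1.3% of all tested genes. Per3, a period protein, was at 14.5 and 14.6 against 8.63 and 4.85 CPM (-1.11 ± 0.28 SE, adjusted p = 0.662). Dbp, a clock output factor, was at 32.2 and 46.2 against 19.2 and 30.2 CPM (-0.67 ± 0.27 SE), with p of 0.27 without control replicate 2. No label gives the hour at which cells were collected. In the iron list, Hfe, which tunes iron uptake through the transferrin receptor, was at 53 and 42.4 against 32.9 and 30.6 CPM (-0.59 ± 0.14 SE, adjusted p = 0.595). The iron transporters Slc40a1 and Slc11a1 were at -0.45 and -0.38 and were not called.

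The remaining genes among the 20 lower ones of smallest p outside the reference lists had varied roles. All 20 kept an unadjusted p under 0.05 in each of the 17 alternatives, with adjusted p between 0.0894 and 0.826. They were picked on that p and the alternatives reuse the same libraries, so keeping it is partly set by the choice. Tmem176a, a membrane protein of dendritic cells and macrophages, was at 31.9 and 24.3 CPM in control and 16.8 and 13.8 CPM in SREBP2-deficient osteoclasts (-0.87 ± 0.19 SE). Abcc3, an exporter of organic anions, was at 40.7 and 39.3 against 27.6 and 24.5 CPM (-0.62 ± 0.14 SE). Man2a2, a mannosidase of N-glycan processing, was at 21.7 and 23.3 against 15.9 and 12.7 CPM (-0.65 ± 0.15 SE). Pdlim4 (-0.59), Tmem154 (-0.72), Zcchc24 (-0.70), Cd302 (-0.59), Sema4a (-0.74) and Enpp1 (-0.74) were also among the 20, for which groups without overlap were a condition. The last 4 of the 20 lie within 10 Mb of Srebf2 on chr15. Abcd2, a peroxisomal transporter of fatty acyl-CoA at a distance of 8.94 Mb, was at 9.89 and 11.3 against 2.78 and 4.59 CPM (-1.51 ± 0.27 SE). Apobec3, a cytidine deaminase that restricts retroviruses at 2.23 Mb, was at 37.8 and 45.2 against 18.4 and 24 CPM (-0.97 ± 0.18 SE), and Mfng and Ptp4a3 were at -2.37 and -1.28. What part closeness to the floxed locus had in these values was not tested.

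Higher genes were fewer and less stable. Of the 34, 8 kept an unadjusted p under 0.05 in all 17 alternatives, beside 46 of the 140 lower genes. The 8 were Rpl3-ps1, Them6, Mief1, Rpl39l, Ncf4, Jrk, Btbd19 and Plau. Rpl3-ps1, a processed pseudogene on chrX, was at 3.96 and 3.81 CPM in control and 57.4 and 61.9 CPM in SREBP2-deficient osteoclasts. In macrophages it was at 4.26 and 4.74 against 52.9 and 54.6 CPM. As a copy of Rpl3 it shares sequence with that gene, so its count is uncertain. Of the 34 genes, 7 lay within 10 Mb of Srebf2, where 194 of the tested genes lie. Ncf4, the p40phox subunit of the phagocyte NADPH oxidase at 3.88 Mb, was at 384 and 386 CPM in control and 673 and 564 CPM in SREBP2-deficient osteoclasts (0.68 ± 0.15 SE, adjusted p = 0.463). Mief1, an adaptor of mitochondrial fission at 1.89 Mb, was at 49.3 and 57.7 against 80.7 and 96 CPM (0.72 ± 0.13 SE, adjusted p = 0.216). Them6 at 7.42 Mb was at 1.67 and 3.38 against 8.63 and 8.26 CPM, and its neighbour Jrk at 1.87 and 2.08 against 7.38 and 7.21 CPM, all clearly apart. The 3 others near the locus were Dennd3, Foxred2 and Arc. Rac2, a GTPase that activates the same oxidase and lies 3.57 Mb from Srebf2, was at 1134 and 1087 against 1632 and 1491 CPM (0.49 ± 0.14 SE, adjusted p = 0.924) and missed the 1.5-fold rule.

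Away from chr15 the higher genes had few functions in common. Plau, the urokinase that activates plasminogen at chr14:20836660-20843385, was at 57.2 and 48.2 CPM in control and 106 and 70.2 CPM in SREBP2-deficient osteoclasts (0.74 ± 0.20 SE, adjusted p = 0.874). It was the 1 gene called higher of 21 matrix and protease genes, where Mmp8, a collagenase also on the neutrophil list, was called lower (-0.87, or -0.35 with a p of 0.33 without control replicate 2) and lost its call in 8 of 17 alternatives. Btbd19 was at 5.21 and 5.46 against 9.33 and 8.26 CPM (0.72 ± 0.19 SE). Rpl39l, a ribosomal protein gene with the near copy Rpl39 and so of uncertain count, was at 1.77 and 0.606 against 6.96 and 6.3 CPM (2.50 ± 0.51 SE), and was the 1 called gene of 80 cytosolic ribosomal protein genes. Rragd, a Rag GTPase that carries amino acid signals to mTORC1, was at 23.9 and 18.9 against 33.5 and 31 CPM (0.60 ± 0.19 SE), and its p was 0.0923 without control replicate 2. Nckap1, a subunit of the actin-nucleating WAVE complex, was at 12.8 and 11.7 against 21.6 and 20.3 CPM (0.77 ± 0.32 SE), with a p of 0.134 without the same library. Dnmt3l was also called, but with 0 counts in both control and 1 and 2 counts in the deficient osteoclasts it lies under the floor of 3 counts and no fold is given. The rest of the 20 higher genes of smallest p were Mid1, Gemin2, Ttc9, Siah1b, Tnfrsf22, Pdpn and Aldh1l2.

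Several lists of biosynthesis lay above 0 with few or no called genes, and the median of the amino acid response changed sign without deficient replicate 1. The 27 tested genes of the amino acid response and tRNA charging, which ATF4 switches on when amino acids run short, all lay above 0 with a median of 0.36, and 0 were called. Relative to the mean of the control osteoclasts the list's median level was 0.23 and -0.23 in the control libraries and 0.65 and -0.09 in SREBP2-deficient replicates 1 and 2, on the log2(CPM + 1) scale. Deficient replicate 2 lay between the control libraries, while each deficient library lay above the control of the same number. Without deficient replicate 1 the median over the list was -0.11, and without control replicate 1, control replicate 2 and deficient replicate 2 it was 0.58, 0.14 and 0.63. These fits did not pair libraries by replicate number. Psat1, an enzyme of serine synthesis, was at 15.5 and 19.9 CPM in control and 23.4 and 23.1 CPM in SREBP2-deficient osteoclasts (0.39 ± 0.17 SE), and was the 1 gene of the list with an unadjusted p under 0.05 (p of 0.308 without control replicate 1). Asns, asparagine synthetase, was at 72.9 and 24.2 against 175 and 34.5 CPM, and replicate 1 was the high library in both genotypes. Of 19 glycolysis and hypoxia genes 18 lay above 0 (median 0.25, 0 called), at 0.50 and 0.02 in the deficient libraries and 0.03 and -0.03 in the controls, and the median was 0.02 without deficient replicate 1. The 34 proteasome genes had a median of 0.10 with 30 above 0, and the 80 cytosolic ribosomal protein genes, 1 of them called, a median of 0.08 with 75 above 0. Leaving out 1 library gave 0.037 to 0.19 for the proteasome and -0.0070 to 0.15 for the ribosomal proteins.

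**Figure D4:**
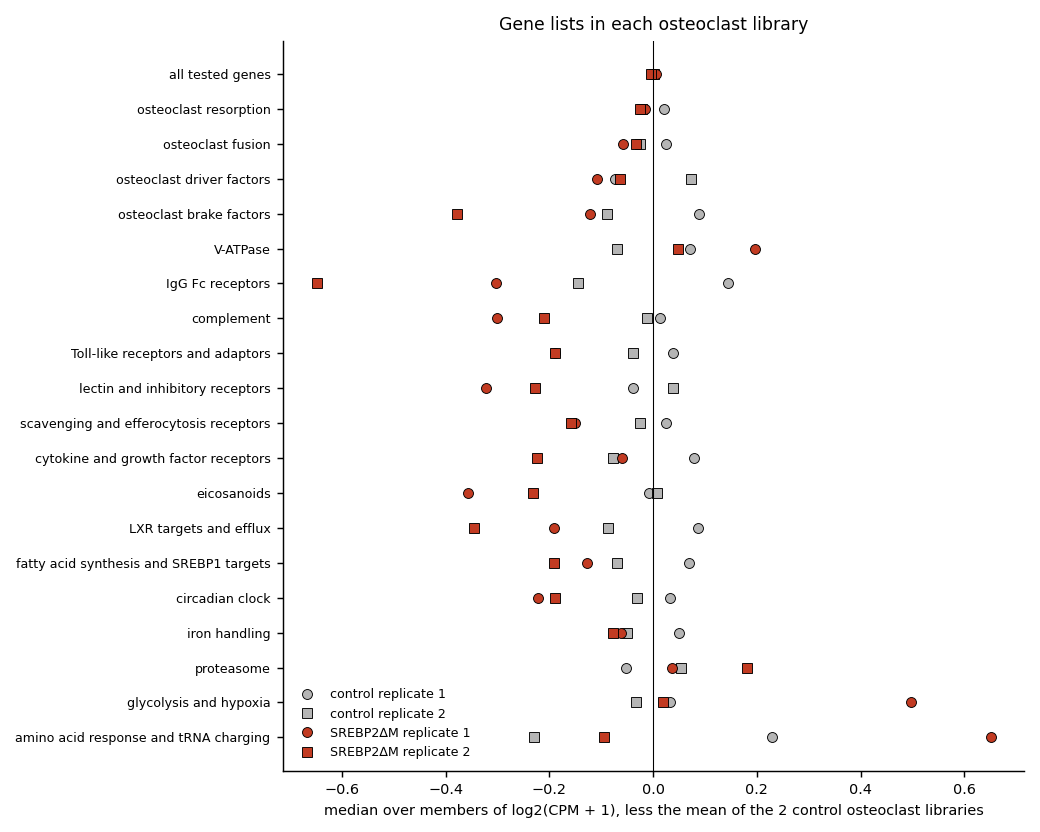
Median over the members of each list of log2(CPM + 1) minus the mean of the 2 control osteoclast libraries (horizontal axis), for each of the 4 osteoclast libraries. Circles are replicate 1, squares replicate 2, grey control and red SREBP2-deficient (labelled SREBP2∆M). Both deficient libraries lie below both controls for complement, lectin receptors and eicosanoids, while amino acid response genes stand at 0.65 and -0.09.

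Gars, the glycyl-tRNA synthetase, is shown as a member of that list whose promoter holds the C/EBP-ATF response element, searched as TGATGNAAT on both strands and found here on the reverse strand, in capitals, 31 bases before the start (chr6:55037751-55038050, plus strand, RefSeq, GRCm38.p6).
Gars: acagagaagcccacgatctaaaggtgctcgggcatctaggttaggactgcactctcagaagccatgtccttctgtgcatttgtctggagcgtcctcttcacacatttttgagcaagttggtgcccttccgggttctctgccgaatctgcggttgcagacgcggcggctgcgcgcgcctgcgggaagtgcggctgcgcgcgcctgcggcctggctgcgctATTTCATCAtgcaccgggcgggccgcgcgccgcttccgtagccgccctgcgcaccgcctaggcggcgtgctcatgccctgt
Gars was at 214 and 189 CPM in control and 299 and 223 CPM in SREBP2-deficient osteoclasts, apart but not called (0.37 ± 0.16 SE, adjusted p = 1). Of the 21 list members with a promoter entry, 3 held the element, namely Aars, Gars and Iars (14.3%), against 0.469% of tested genes and 0.965% of all promoters in the table.

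The genotype difference in osteoclasts was then set beside that in macrophages, which came from other libraries. In macrophages 6 genes (0.0557%) passed an adjusted p under 0.05, and 24 genes (0.223%) were called higher and 59 (0.548%) lower by the same rule. Among the 140 genes called lower in osteoclasts, 114 had the same sign in macrophages and 29 were called there, with medians of -0.79 in osteoclasts and -0.21 in macrophages. Among the 34 higher genes 25 had the same sign and 8 were called, with medians of 0.77 and 0.23. These genes were picked on the osteoclast difference, so smaller medians in macrophages are partly set by that choice. The 140 lower genes include 34 of the sterol, interferon and antigen presentation lists. The share of all tested genes with the same sign in osteoclasts and macrophages is not given. The difference between the differences, tested as the interaction of genotype with RANKL, passed an adjusted p under 0.05 for 0 of 10764 genes by edgeR's quasi-likelihood test and also by DESeq2 and limma-voom, and 119 genes (1.11%) had an unadjusted p under 0.05. No gene is therefore shown to differ between osteoclasts and macrophages after adjustment within the filtered table.

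At the unadjusted level 14 of the 20 lower genes of smallest p had an interaction p under 0.05, but they were picked on the osteoclast difference, which is part of that test, so the count is a description. Pdlim4 was at 30.9 and 36.1 CPM in control and 20.7 and 23.9 CPM in SREBP2-deficient osteoclasts, and at 54.8 and 62.3 against 63.9 and 65.8 CPM in macrophages (0.15). C1qb, lower in osteoclasts, had a log2 fold change of 0.12 in macrophages, where it was at 1829 and 1809 CPM in control and 1986 and 1976 CPM in SREBP2-deficient cells. Other genes had values of like size in both cell types. Ncf4 was at 0.68 in osteoclasts and 0.65 in macrophages, Jrk at 1.87 and 2.60, Apobec3 at -0.97 and -0.74, and Aldh1l1 at -0.78 and -0.90. Rragd was at 0.60 in osteoclasts and 1.17 in macrophages, where its level was low, at 1.06 to 3.23 CPM.

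**Figure D5:**
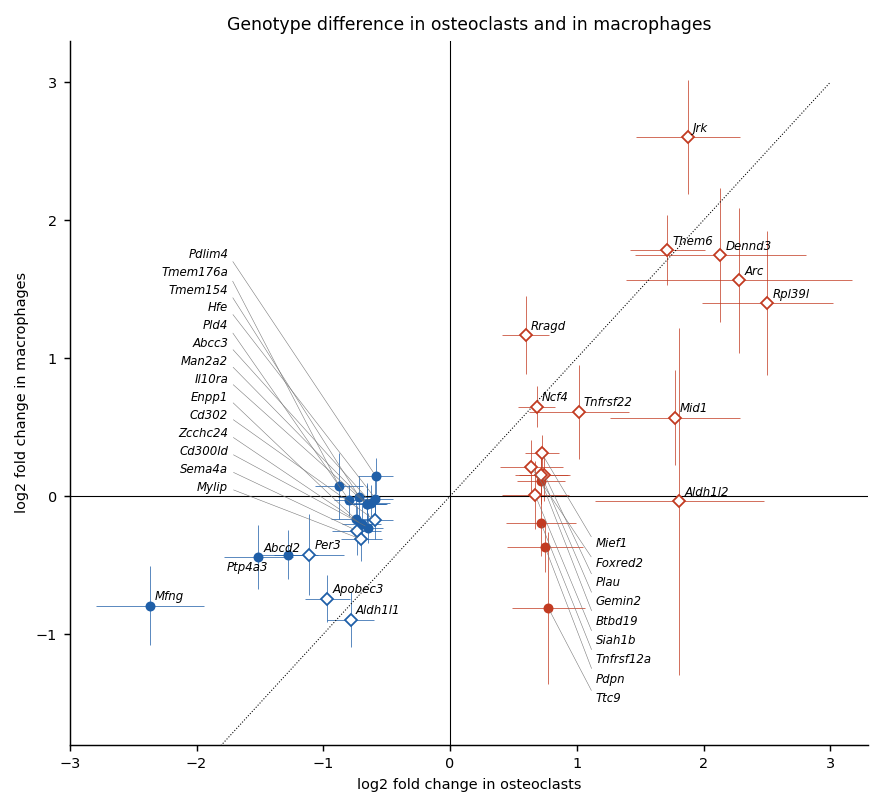
Log2 fold change of SREBP2-deficient over control in osteoclasts (horizontal axis) and in macrophages (vertical axis), with bars of 1 SE, for the 20 lower (blue) and 19 of the 20 higher (red) genes of smallest p outside the reference lists. Dnmt3l, under the floor in osteoclasts, is left out, filled circles had an unadjusted interaction p under 0.05, and the dotted line marks equal values. Many blue points lie near 0 on the macrophage axis, while chr15 genes such as Jrk and Them6 and also Aldh1l1 lie near the line.

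The response of control cells to RANKL shares the control osteoclast libraries with the genotype difference, so its values are only set beside it. Pld4, Cd300ld, Fcgr3 and C1qb had control RANKL log2 fold changes of -1.10, -1.34, -0.98 and -1.71, and Irf8 of -2.01. Other lower genes went the opposite way in control differentiation. Abcg1 had a control RANKL log2 fold change of 3.86, Tmem176a of 2.92, Aldh1l1 of 1.74 and Fcgrt of 1.42. Plau, higher in SREBP2-deficient osteoclasts, had -4.70 and Rragd 4.01.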

How the data were processed

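Poly(A) RNA of the SREBP2 experiment was sequenced with a stranded kit, and raw read counts per gene for its 8 libraries (7703178 to 13387849 counts) were deposited by the authors. Tools listed in the submitters' processing notes were STAR 2.7.3a, fastp, bcl2fastq 1.8.4 and edgeR, with mm10 as the build. For the read counter, the strand setting and the release of the annotation nothing is stated in the sources used here. The 10764 genes of the deposited filtered sheet were tested with counts as deposited. All 4 groups were fitted together with edgeR 4.0.16 (R 4.3.3), TMM factors, a group-means design and the quasi-likelihood test with Benjamini-Hochberg adjustment, on 4 residual degrees of freedom with a common biological coefficient of variation of 0.15. Each SE was taken from the size of the log2 fold change over the root of its F statistic. An exact permutation test of 2 against 2 libraries cannot go below p = 0.333 and was not used. Alternatives used DESeq2 1.42.0, limma 3.58.1, other filters, scalings and sample sets, a replicate block and each library left out. Named genes were those at an adjusted p under 0.05, the 20 called genes of smallest p in each direction that were protein coding, had groups that did not overlap and were on none of 6 reference lists, the 5 of highest CPM in that pool, up to 4 members of smallest p a described list, and 7 osteoclast genes. The genes and lists were chosen with earlier results of these data known. Promoters came from RefSeq (GRCm38.p6), matched by symbol for 8529 of the tested genes. Figures used matplotlib 3.10.9 in Python 3.11.15. The tests of the genotype difference in osteoclasts and in macrophages were tried on simulated counts, and the other steps were not. The files of the IRF7 experiment and the log2 CPM sheet were not used. The values of 1 gene of the brake list are not reported here.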

Additional observations from a re-analysis of the deposited data

How the results depend on the processing

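Counts of genes depended on the test more than on the scaling. The 4 genes at an adjusted p under 0.05 became 25 with DESeq2's Wald test, 28 with edgeR's likelihood ratio test, 132 without the filter and 2 with only the compared groups, and 3 to 9 when 1 library was left out. The 34 higher genes became 142 without the filter and 21 with only the compared groups, and 32 to 110 when 1 library was left out, with 110 reached without SREBP2-deficient osteoclast replicate 2. The 140 lower genes became 284 without the filter, and 130 to 231 when 1 library was left out, with 231 reached without that same library. The causes were not tested. Without the filter the interaction had 2 genes at an adjusted p under 0.05. With a replicate block the counts were 6, 42 and 146. With the block Tlr8 (p of 0.0638), Pdpn and Psat1 no longer had p under 0.05, and Calcr came to -0.36 with a p of 0.0208. No other of the 90 genes followed by value through the alternatives changed its side of that threshold. Irf7 and Gapt, which were not among those 90, also lost p under 0.05 with the block. The labels do not say what the replicate numbers share, and the deviations of same-numbered osteoclast libraries correlated at 0.70 against 0.06 to 0.31 for the other pairs of groups. Leaving out 1 library gave -0.80 to 0.23 for Itgb3, -1.10 to 0.34 for Calcr, -0.11 to 0.49 for Ctsk, -0.021 to 0.27 for Acp5, -0.072 to 0.28 for Dcstamp, -0.0068 to 0.13 for Oscar and -0.29 to 0.025 for Nfatc1. The 2 libraries a group limit precision, and at 7914683 counts the shallowest osteoclast library gives few counts to genes near 1 CPM.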

Other observations

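A small set of genes followed the replicate number rather than genotype or RANKL. In all 4 groups 11 genes differed over 4-fold between replicate 1 and replicate 2 (log2 difference over 2 with a pseudocount of 1 CPM), 8 of them higher in replicate 1 and 3 in replicate 2, and they were picked after the data were seen. Ifi202b, an interferon-inducible DNA-binding gene, was at 77.2 and 4.33 CPM in control and 61.8 and 3.94 CPM in SREBP2-deficient osteoclasts. The pseudogene Rps3a3 was at 181 and 0 CPM against 106 and 0.262 CPM, and the pseudogene Gm8730 at 3.54 and 182 against 3.06 and 170 CPM. The others were Gm3608, Ctse, Gm10704, Rpl15-ps2, Rps3a2 and Gm10020, higher in replicate 1, and Gm9625 and Pcna-ps2, higher in replicate 2.

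DNA replication genes also differed by replicate number. The median of the 35 tested genes, relative to control osteoclasts, was -0.35 and 0.35 in the control and -0.33 and 0.47 in the SREBP2-deficient libraries on the log2(CPM + 1) scale, and 0 replication genes were called between genotypes.

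Irf4, a transcription factor of macrophage and osteoclast differentiation named after its values were seen, was at 6.46 and 4.76 CPM in control and 1.67 and 3.02 CPM in SREBP2-deficient osteoclasts (-1.24, unadjusted p = 0.00836, adjusted p = 1). Among secreted factors, Igf1 was at 121 and 136 against 90.2 and 102 CPM (-0.42, not called) and the chemokine Ccl3 at 4.79 and 4.5 against 7.38 and 7.08 CPM (0.64). Ccl3 was called higher, but kept an unadjusted p under 0.05 in only 9 of 17 alternatives.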
